A study of Mus musculus with 15 samples.

Results

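The genes described are 6 CXC chemokine genes of the mouse outside the CXCR3 ligands, namely Cxcl1, Cxcl2, Cxcl3, Cxcl14, Cxcl16 and Pf4. They were taken by symbol from a count table of 50508 symbols; no expression value enters that rule, but the set was proposed with earlier results of these data known. All 6 were among the 13800 genes that passed the filter on low counts. RNA was sequenced in 15 libraries from 8 tumours of the mouse at 10 days, each library being a myeloid population separated by FACS. The tumours grew from LLC, the Lewis lung carcinoma line, as Mock-LLC (4 tumours) or SULT2B1b-LLC (4 tumours), the latter named for a sulfotransferase whose substrates are cholesterol and its oxidised forms. Of each tumour, Ly6Chigh CD11c+ MHC-II+ cells were taken as 1 population and Ly6Clow cells as the other. This gave 4 groups: Ly6Clow cells of Mock-LLC (n = 4), Ly6Chigh cells of Mock-LLC (n = 4), Ly6Clow cells of SULT2B1b-LLC (n = 3, tumours 2 to 4) and Ly6Chigh cells of SULT2B1b-LLC (n = 4). All groups share the LLC background. The labels give no mouse strain, age or sex, no vector, and no statement that a tumour type was more than 1 line of transduced cells.

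Chemokines are small secreted proteins that direct the movement of leukocytes, and CXC chemokines are those with a residue between the first pair of cysteines. Cxcl1, Cxcl2 and Cxcl3 carry an ELR motif, bind CXCR2 and draw neutrophils; their genes are textbook targets of NF-kB and are switched on quickly in macrophages. Cxcl14 is made by many tissues at rest and its receptor is less settled. Cxcl16 is made as a membrane protein that also takes up oxidised lipoprotein, is cut loose by ADAM10, and binds CXCR6 on T and NKT cells, while Pf4 (CXCL4) is stored in platelet granules with the proteoglycan serglycin and is also transcribed in macrophages.

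In GRCm38 the genes lie on 3 chromosomes. Pf4 (chr5:90772435-90773383), Cxcl3 (chr5:90786103-90789600), Cxcl1 (chr5:90891241-90893115) and Cxcl2 (chr5:90903871-90905938) lie on the plus strand within 133504 bases, a stretch with 5 protein-coding genes of which Cxcl15 is the other. Cxcl14 lies on the minus strand at chr13:56288643-56296551. Cxcl16 lies on the minus strand at chr11:70453983-70459984 and overlaps Zmynd15 on the plus strand. RefSeq promoters (GRCm38.p6, 250 bases before to 50 after the start) were at hand for 5 of the 6 genes, and the longest run of letters shared by the 250 bases before the start of Cxcl1, Cxcl2 and Cxcl3 was the 11-letter GGGAATTTCCC, a run of the NF-kB type. Counted from the RefSeq start, it began 71 bases before the start in Cxcl1, 97 in Cxcl2 and 73 in Cxcl3, each on the gene's own strand. These starts differ from the GENCODE gene positions above, most of all in Cxcl2, whose RefSeq window before the start runs to chr5:90903898, past 90903871. The farther distance in Cxcl2 thus depends on the annotation. These letters were on neither strand of the 250 bases of Cxcl14 or Pf4. On either strand it was in 6 of 12230 such windows of tested genes (0.0491%) and in 14 of all 32851 (0.0426%), counts that include the 3 genes it was read from. A match describes the sequence only. The 150 bases before the start are shown for the 3 CXCR2 ligand genes, which share the run, and for Cxcl14, the gene that differed between groups most often; they are written 5′ to 3′ on the gene's strand with this run in capitals. The Cxcl1, Cxcl2 and Cxcl3 windows are chr5:90891095-90891244, chr5:90903749-90903898 and chr5:90785951-90786100 on the plus strand, and that of Cxcl14 is chr13:56296552-56296701 on the minus strand.
Cxcl1: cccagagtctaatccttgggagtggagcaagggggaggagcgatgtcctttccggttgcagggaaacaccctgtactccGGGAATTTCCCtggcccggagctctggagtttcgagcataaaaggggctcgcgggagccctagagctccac
Cxcl2: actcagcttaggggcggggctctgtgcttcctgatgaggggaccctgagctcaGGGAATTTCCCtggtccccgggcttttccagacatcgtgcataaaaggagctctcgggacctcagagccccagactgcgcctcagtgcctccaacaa
Cxcl3: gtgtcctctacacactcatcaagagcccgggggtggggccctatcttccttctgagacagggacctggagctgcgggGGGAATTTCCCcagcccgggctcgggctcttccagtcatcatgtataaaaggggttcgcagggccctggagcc
Cxcl14: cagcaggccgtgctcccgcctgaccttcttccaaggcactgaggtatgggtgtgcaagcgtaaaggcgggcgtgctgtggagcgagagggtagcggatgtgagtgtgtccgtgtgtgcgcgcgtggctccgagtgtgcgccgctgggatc

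Depth followed the population: Ly6Clow libraries held 19792494 to 39284008 counts and Ly6Chigh libraries 2617878 to 10626954, so that 3 counts were worth 0.0777 to 1.14 CPM. Levels are in CPM, the usual unit of counts relative to library size, with library sizes corrected by TMM. In SULT2B1b-LLC, the Ly6Chigh library from tumour 1 was unlike the rest, with 2617878 counts but 24540 genes detected, against 13123 to 17737 in the other Ly6Chigh libraries; results that change without it are given with and without it. Sult2b1 itself had 12.2 ± 4.62 CPM (SD, n = 4) in Ly6Chigh and 1.60 ± 0.691 (n = 3) in Ly6Clow cells of SULT2B1b-LLC, and at most 0.510 CPM in any Mock-LLC library. Ly6c2 followed the sort. Itgax, the gene of the CD11c of the gate, passed in no comparison. Replicates are numbered tumours, and the labels do not tie each tumour to a separate animal, so the p-values cover the spread among these libraries and no more. A lower level in a bulk sample can mean fewer cells that express the gene or less RNA per cell, and these cannot be told apart here.

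The 6 genes behaved in 3 ways. Cxcl14 fell in SULT2B1b-LLC tumours in both populations and was lower in Ly6Chigh than in Ly6Clow cells of both tumour types, so that its level stepped down from Ly6Clow cells of Mock-LLC to Ly6Chigh cells of SULT2B1b-LLC. Cxcl16 was lowest in Ly6Clow cells of Mock-LLC, below every library of the other groups. Of all genes, 22.3% did not overlap between populations of Mock-LLC and 16.1% between tumour types in Ly6Clow cells. The tumour-type difference of Cxcl16 passed the test in Ly6Clow cells but not in Ly6Chigh cells. Cxcl1, Cxcl2, Cxcl3 and Pf4 passed no comparison at an edgeR adjusted p under 0.05; Pf4 did between populations of Mock-LLC with limma-voom and with the tumour as a block. The spread between tumours of 1 group was wide for Cxcl1, Cxcl2 and Cxcl3, and for Pf4 in 3 of the 4 groups. With the edgeR quasi-likelihood test, SULT2B1b-LLC against Mock-LLC called 1 of 6 in Ly6Chigh cells, a gene that fell, where 1.62% of all genes tested were called (0.891% higher and 0.725% lower). In Ly6Clow cells it called 2 of 6, of which 1 rose and 1 fell, where 0.638% were called (0.507% higher and 0.13% lower). Ly6Chigh against Ly6Clow cells called 2 of 6 in Mock-LLC, 1 in each direction, with 8.41% of all genes called (3.55% higher and 4.86% lower), and 1 of 6, lower, in SULT2B1b-LLC, with 2.64% called (1.1% higher and 1.54% lower). The median log2 fold change of the 6 genes in these 4 comparisons was 0.29, -0.20, -0.05 and 0.12, beside 0.03, -0.02, -0.08 and -0.03 over all genes tested. The test of the difference between the populations' tumour-type effects (the interaction) called 0 of 6, with 0.0145% of all genes called; by DESeq2 and by limma-voom it was also 0 of 6, and 1 of 6, Cxcl16, had an unadjusted p under 0.05 in edgeR, as did 7.14% of all genes.

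**Figure D1:**
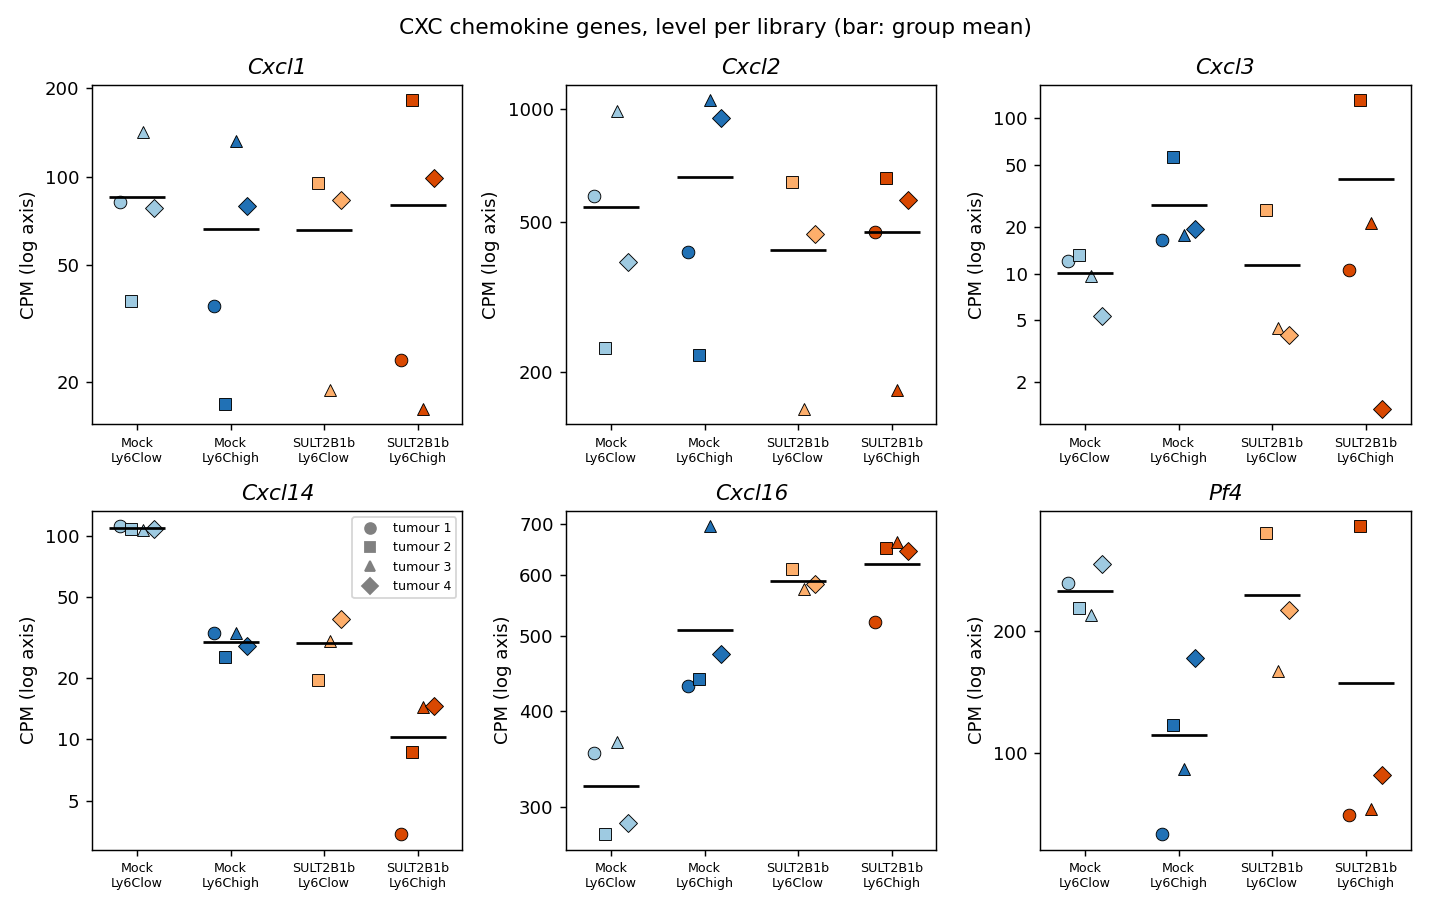
Level of each of the 6 genes in CPM (log axis) in all 15 libraries, by group; a symbol is 1 tumour and the bar is the group mean. Cxcl14 stands at 107 to 112 CPM in Ly6Clow cells of Mock-LLC and at 3.41 to 14.5 CPM in Ly6Chigh cells of SULT2B1b-LLC, while Cxcl1, Cxcl2 and Cxcl3 overlap between tumour types in both populations.

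Cxcl1, a CXCR2 ligand that draws neutrophils, had 82.0, 37.7, 142 and 78.5 CPM in Ly6Clow cells of Mock-LLC tumours 1 to 4. In Ly6Chigh cells of the same tumours it had 36.2, 16.8, 132 and 79.7 CPM. Tumour 2 was the lowest and tumour 3 the highest in both populations. Ly6Clow cells of SULT2B1b-LLC tumours 2 to 4 had 95.4, 18.8 and 83.3 CPM of Cxcl1, and Ly6Chigh cells of tumours 1 to 4 had 23.9, 182, 16.2 and 99.2 CPM. Here tumour 3 was the lowest and tumour 2 the highest in both populations, and all 4 groups overlapped. The log2 fold change of Cxcl1 for SULT2B1b-LLC against Mock-LLC was 0.29 (95% interval -1.29 to 1.87, edgeR adjusted p = 0.907) in Ly6Chigh cells and -0.37 (-2.07 to 1.33, edgeR adjusted p = 1) in Ly6Clow cells. These intervals hold changes of more than a doubling in either direction. Between populations the log2 fold change was -0.36 in Mock-LLC and 0.30 in SULT2B1b-LLC (edgeR adjusted p = 0.826 and 0.919), and Ly6Chigh cells were above Ly6Clow cells in 3 of 7 tumours.

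Cxcl2, known in the mouse as MIP-2 and likewise a CXCR2 ligand, had 587, 232, 989 and 392 CPM in Ly6Clow and 418, 222, 1054 and 948 CPM in the Ly6Chigh cells of Mock-LLC tumours 1 to 4. In SULT2B1b-LLC it had 638, 159.9 and 464 CPM in Ly6Clow cells of tumours 2 to 4 and 469.9, 657, 179 and 574 CPM in Ly6Chigh cells of tumours 1 to 4. The groups overlapped throughout. The log2 fold change of Cxcl2 between tumour types was -0.49 (-1.67 to 0.68, edgeR adjusted p = 0.746) in Ly6Chigh and -0.39 (-1.66 to 0.89, edgeR adjusted p = 1) in Ly6Clow cells, and between populations 0.26 and 0.16 (edgeR adjusted p = 0.828 and 0.946). Ly6Chigh cells were above Ly6Clow cells in 5 of 7 tumours.

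Cxcl1 and Cxcl2 followed each other from tumour to tumour. In 4 of 4 groups the same tumour was highest for both genes and the same tumour was lowest for both. Pearson's r of their log2(CPM + 1) was 0.85 over the 15 libraries and 0.90 after the group means were subtracted, as a description of points that share tumours and depth. Cxcl3, whose promoter carries the same 11 letters, followed them less closely in these values: its r with Cxcl1 was 0.02 and with Cxcl2 0.06, and it shared the highest tumour with each in 2 of 4 groups and the lowest in 0 of 4. Other inducible genes moved with the pair in part. The summed level of 15 immediate-early and stress genes, which handling of cells can induce, was lowest in the tumour where Cxcl1 and Cxcl2 were lowest in 3 of 4 groups, at 9150 CPM in Ly6Clow and 8026 CPM in the Ly6Chigh cells of Mock-LLC tumour 2 and 8014 CPM in Ly6Clow cells of SULT2B1b-LLC tumour 3. The highest library of each of these groups had 11292, 12007 and 15057 CPM, in tumours 1, 4 and 4. In Ly6Chigh cells of SULT2B1b-LLC tumour 3 the sum was 7740 CPM, next to the lowest at 7211 CPM in tumour 1. There it was highest in tumour 4, at 13321.5 CPM. In no group was the sum highest in the tumour where Cxcl1 and Cxcl2 were highest. The sum of 25 NF-kB and IL-1 response genes was lowest in the same tumours in the same 3 groups, at 4743, 7016 and 4282 CPM, and highest with the pair in 2 of 4 groups. Il1b alone shared the highest tumour with Cxcl1 or Cxcl2 in 0 of 4 groups and the lowest in 1. The part of handling in the levels of Cxcl1 and Cxcl2 was not tested. Of the 8489 well-measured genes compared, those most like Cxcl1 were Rgs1 (r = 0.87), Cxcl2 and Gtf3c1 (r = 0.84), and those most like Cxcl2 were Sgk1 (r = 0.91), Rgs1 and Klf6 (each r = 0.87). Rgs1, a regulator of G-protein signalling at chemokine receptors, kept r = 0.92 with both after group means were subtracted.

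**Figure D2:**
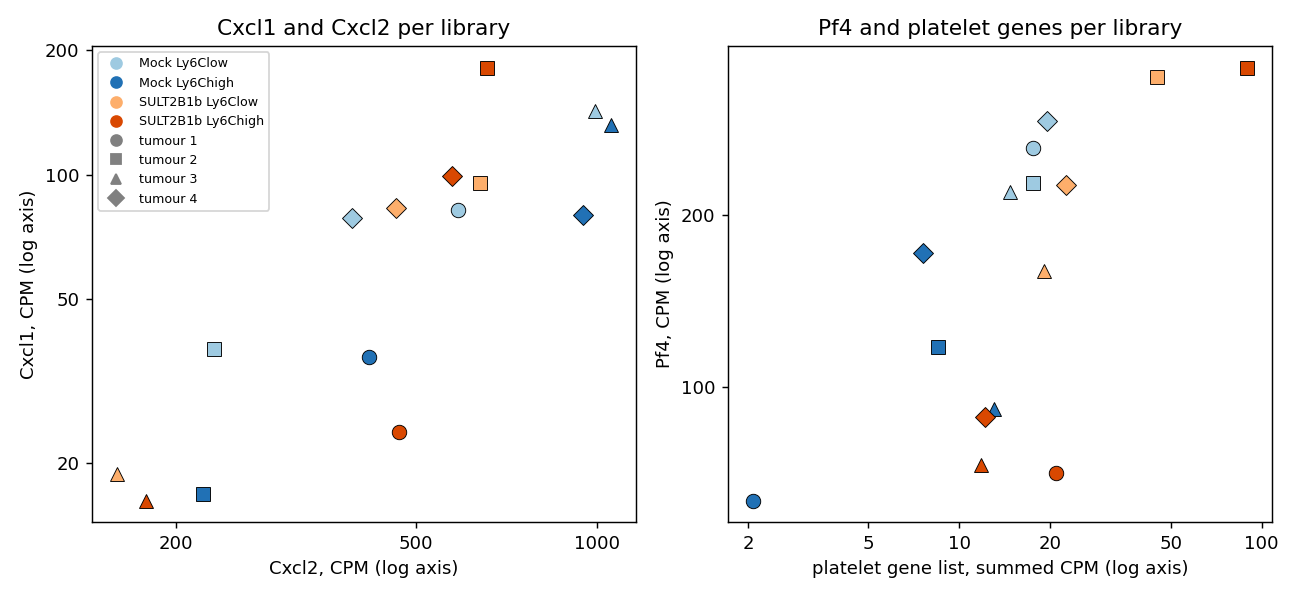
Left, Cxcl1 against Cxcl2 in CPM (both log axes), and right, Pf4 in CPM against the summed CPM of 12 platelet genes (both log axes); a point is 1 of 15 libraries, its colour the group and its shape the tumour. Cxcl1 rises with Cxcl2 across libraries of all groups (r = 0.85), and tumour 2 of SULT2B1b-LLC stands highest on both axes of the right panel in each population.

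Cxcl3, the third CXCR2 ligand, had 2.87 to 11.7 CPM per kb of exon as group means, beside 204 to 319 for Cxcl2 and 35.1 to 45.4 for Cxcl1. It was the least abundant of the 6 genes per length in 3 of 4 groups; in the fourth, Ly6Chigh cells of SULT2B1b-LLC, its mean of 11.7 rests on 1 library, tumour 2, and Cxcl14 had 5.59 CPM per kb. Its range over the libraries was the widest, 96.9-fold, from 13 to 1136 counts. It had 12.1, 13.1, 9.63 and 5.32 CPM in Ly6Clow and 16.5, 56.6, 17.8 and 19.3 CPM in the Ly6Chigh cells of Mock-LLC tumours 1 to 4. The populations of Mock-LLC did not overlap, as was so for 22.3% of all genes tested, and the fitted log2 fold change of 1.45 (-0.57 to 3.48) had an edgeR adjusted p of 0.407. In SULT2B1b-LLC, Cxcl3 had 25.8, 4.43 and 4.01 CPM in Ly6Clow cells of tumours 2 to 4 and 10.6, 131, 21.2 and 1.35 CPM in Ly6Chigh cells of tumours 1 to 4. Tumour 2 was far above the others in both populations. Ly6Chigh cells were above Ly6Clow cells in 6 of 7 tumours, by 1.36- to 5.06-fold, and in tumour 4 of SULT2B1b-LLC they were below; the log2 fold change in SULT2B1b-LLC was 1.85 (-0.42 to 4.12, edgeR adjusted p = 0.465), and without the Ly6Chigh library of tumour 2 it was -0.0026. Between tumour types it was 0.58 in Ly6Chigh (edgeR adjusted p = 0.84) and 0.19 in Ly6Clow cells (edgeR adjusted p = 1), and without that same library the first was -1.34. Of all stretches of 75 bases in the transcripts, 101 are shared by Cxcl2 and Cxcl3, 4.57% of those of Cxcl2 and 2.78% of those of Cxcl3, and reads from these could have been assigned to either gene or dropped. The count of Cxcl3 was 0.235% to 25.5% of that of Cxcl2. It was smallest in Ly6Chigh cells of SULT2B1b-LLC tumour 4, with 13 counts of Cxcl3 beside 5540 of Cxcl2. In that library at most 0.235% of the Cxcl2 count can have been reads of Cxcl2 counted as Cxcl3. The effect of shared reads on the level of Cxcl3 was not tested. The genes most like Cxcl3 were Xrn1 (r = 0.84), Tnfrsf9 and Akap7 (each r = 0.82).

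NF-kB and IL-1 response genes, a list of 25 that contains the textbook partners of these 3 chemokines, were counted beside them. By edgeR 0 of 25 were called between tumour types in either population; DESeq2 called Rel in Ly6Chigh and Clec4e in Ly6Clow cells, limma-voom called 0 and 2, and 6 and 4 of 25 had an unadjusted p under 0.05 in edgeR, as did 15.6% and 3.74% of all genes. In Mock-LLC 5 of 25 rose in Ly6Chigh over Ly6Clow cells and 0 fell, where 3.55% of all genes tested rose and 4.86% fell. DESeq2 called 10 and limma-voom 6. Among these were the NF-kB subunit gene Rel (3.58-fold, edgeR adjusted p = 0.000654) and the feedback inhibitor Nfkbie (1.76-fold, edgeR adjusted p = 0.00706). In SULT2B1b-LLC only Clec4e, a lectin receptor, rose (2.92-fold, edgeR adjusted p = 0.0104), where 1.1% of all genes tested rose and 1.54% fell. The median log2 fold change of the 25 was 0.56 in Mock-LLC and 0.23 in SULT2B1b-LLC between populations, beside -0.08 and -0.03 over all genes tested. Of the 15 immediate-early and stress genes 0 were called between tumour types, with 0 at an unadjusted p under 0.05 in edgeR and 0 called by DESeq2 or limma-voom. Between populations edgeR called only Hspa1b, a heat-shock gene, which was lower in Ly6Chigh cells of SULT2B1b-LLC (edgeR adjusted p = 0.0367). In Mock-LLC it had 45.0 ± 22.1 CPM in Ly6Clow and 11.8 ± 6.86 CPM in Ly6Chigh cells (n = 4 each). DESeq2 called Hspa1b in both tumour types and Junb in SULT2B1b-LLC, and limma-voom called 0 in either. The summed level of the 14 neutrophil genes was 443 to 724 CPM in Mock-LLC and 591 to 694 CPM in SULT2B1b-LLC Ly6Clow cells, and 171 to 287 and 142 to 201 CPM in Ly6Chigh cells. Most of the Ly6Clow sum was Retnlg, at 470.9 ± 122 CPM (n = 4) in Mock-LLC and 490.2 ± 66.1 (n = 3) in SULT2B1b-LLC, against 3.52 ± 3.85 and 8.45 ± 7.79 CPM (n = 4 each) in Ly6Chigh cells. S100a8 and S100a9 were at or below 4.29 CPM in every library, Elane was at 0 in 3 of the 4 groups, and Csf3r and Il1r2 rose in Ly6Chigh cells of Mock-LLC (edgeR adjusted p = 0.0149 and 0.0186). Between tumour types in Ly6Clow cells, Csf3r rose from 43.0 ± 5.39 CPM (n = 4) in Mock-LLC to 90.2 ± 6.57 CPM (n = 3) in SULT2B1b-LLC. EdgeR, DESeq2 and limma-voom each called it there, where by edgeR 0.507% of all genes tested rose. The part of such cells in the levels of Cxcl1, Cxcl2 and Cxcl3 was not tested.

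Cxcl14 gave the clearest pattern. It had 112, 109, 107 and 109 CPM in Ly6Clow cells of Mock-LLC tumours 1 to 4, an SD of 1.86 on a mean of 109. Ly6Chigh cells of the same tumours had 33.4, 25.3, 33.3 and 28.7 CPM. Each Ly6Chigh library was below each Ly6Clow library, and such separation in either direction held for 22.3% of all genes in Mock-LLC and 19.5% in SULT2B1b-LLC. In SULT2B1b-LLC, Ly6Clow cells of tumours 2 to 4 had 19.5, 30.6 and 39.0 CPM and Ly6Chigh cells of tumours 1 to 4 had 3.41, 8.62, 14.3 and 14.5 CPM of Cxcl14, again without overlap. Ordered by mean, Ly6Clow cells of Mock-LLC (109 ± 1.86 CPM, SD, n = 4) came first and Ly6Chigh cells of SULT2B1b-LLC (10.2 ± 5.30, n = 4) last. The middle neighbours, Ly6Chigh cells of Mock-LLC (30.2 ± 3.91, n = 4) and Ly6Clow cells of SULT2B1b-LLC (29.7 ± 9.81, n = 3), overlapped.

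Between tumour types Cxcl14 was 2.86-fold lower in SULT2B1b-LLC in Ly6Chigh cells (95% interval 1.78 to 4.58, edgeR adjusted p = 0.0296) and 3.67-fold lower in Ly6Clow cells (2.20 to 6.13, edgeR adjusted p = 0.0161). The groups did not overlap in either population, as was so for 5.53% of all genes in Ly6Chigh and 16.1% in Ly6Clow cells. The interaction was 0.36 on the log2 scale (-0.61 to 1.33, edgeR adjusted p = 0.984), so a difference between the populations' effects was not detected within that interval. Between populations Cxcl14 was 3.61-fold lower in Ly6Chigh than in Ly6Clow cells of Mock-LLC (2.27 to 5.74, edgeR adjusted p = 0.00203) and 2.81-fold lower in SULT2B1b-LLC (1.71 to 4.61, edgeR adjusted p = 0.0245). It was lower in 7 of 7 tumours, at 0.233 to 0.469 of the Ly6Clow level. The lowest library, from tumour 1 of SULT2B1b-LLC, had 9 counts; without it the log2 fold change between tumour types was -1.26 in place of -1.51 (edgeR adjusted p = 0.0205) and between populations -1.20 in place of -1.49 (edgeR adjusted p = 0.0211). The call in Ly6Chigh cells was lost without tumour 1 or 3 of Mock-LLC or tumour 2 of SULT2B1b-LLC (edgeR adjusted p = 0.0611, 0.0609 and 0.0776), and in Ly6Clow cells it was lost without any 1 of the 7 libraries (0.0515 to 0.157), at log2 fold changes of -1.63 to -2.12. Between populations of SULT2B1b-LLC it was lost without Ly6Clow tumour 3 or 4 or Ly6Chigh tumour 2 (edgeR adjusted p = 0.13, 0.236 and 0.09). Limma-voom did not call Cxcl14 between tumour types in Ly6Chigh cells (adjusted p = 0.142) or between populations of SULT2B1b-LLC (0.0864).

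**Figure D3:**
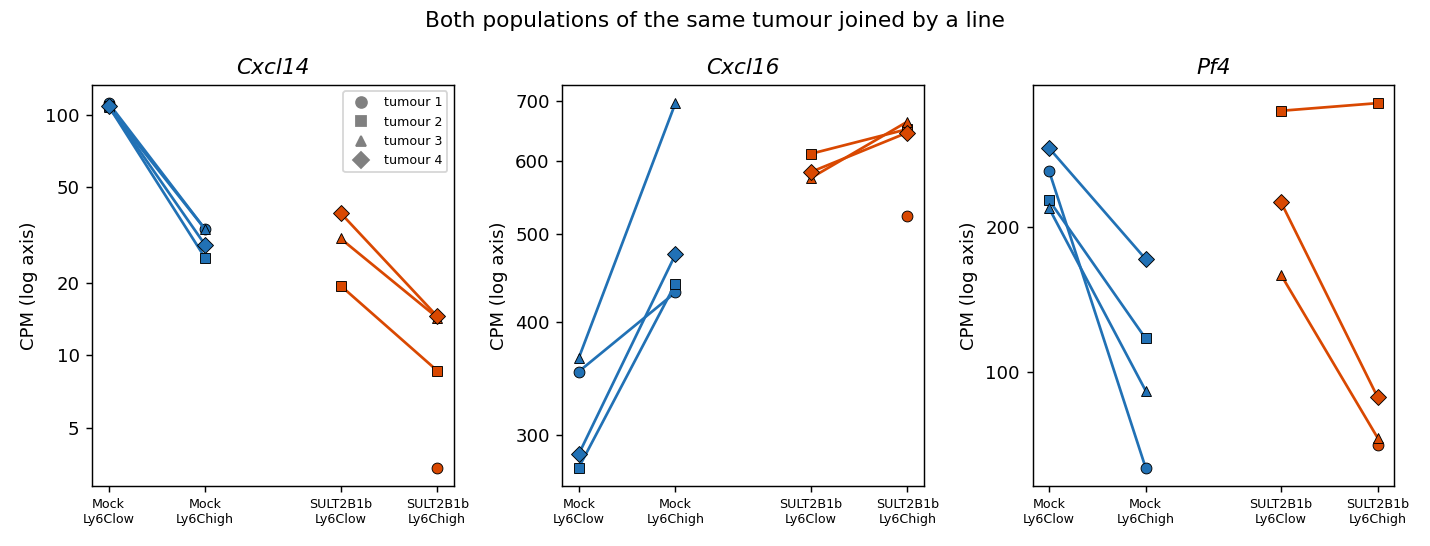
Cxcl14, Cxcl16 and Pf4 in CPM (log axes) in Ly6Clow and Ly6Chigh cells of each tumour; a line joins both populations of 1 tumour, and tumour 1 of SULT2B1b-LLC has a Ly6Chigh point only. All 7 lines of Cxcl14 fall, all 7 of Cxcl16 rise, and 6 of 7 of Pf4 fall.

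Markers of other cells moved with the Cxcl14 groups in part. The 13 resident-type macrophage genes summed to 9138 to 11493 CPM in Ly6Clow and 3753 to 4302 CPM in the Ly6Chigh cells of Mock-LLC, and to 13706 to 14291 and 5423 to 8004 CPM in SULT2B1b-LLC. Their sum was thus lower in Ly6Chigh cells, as Cxcl14 was, but higher in SULT2B1b-LLC, where Cxcl14 was lower. The list did not move as a whole between tumour types. Its median log2 fold change was 0.87 in Ly6Chigh cells but 0.0034 in Ly6Clow cells. In Ly6Clow cells the mean of F13a1 was 804 CPM in Mock-LLC and 536 CPM in SULT2B1b-LLC, while that of Mrc1 was 816 and 1077 CPM. Of these 13 genes 10 fell in Ly6Chigh cells of Mock-LLC and 6 in those of SULT2B1b-LLC, led by the complement genes C1qa and C1qc. Of all genes tested 4.86% and 1.54% fell there. With SULT2B1b-LLC 4 of the 13 rose in Ly6Chigh cells (C1qa 2.08-fold, edgeR adjusted p = 0.000331, and C1qb 1.80-fold, edgeR adjusted p = 0.00369), where 0.891% of all genes tested rose. In Ly6Clow cells C1qa rose (1.47-fold, edgeR adjusted p = 0.0419), where 0.507% of all genes tested rose. DESeq2 and limma-voom also called C1qb and C1qc there. The 9 fibroblast genes summed to 144 to 322 CPM in Ly6Clow and 131 to 728 CPM in the Ly6Chigh cells of Mock-LLC, and to 52.7 to 151 and 651 to 1518 CPM in SULT2B1b-LLC. In Ly6Chigh cells 2 fibroblast genes, Dcn and Pdgfra, rose with SULT2B1b-LLC (Dcn 3.36-fold, edgeR adjusted p = 0.0496; Pdgfra from 5 to 307 counts, edgeR adjusted p = 0.033), and Col3a1, Dcn and Lum were higher there than in Ly6Clow cells; Fap was at 0. The fibroblast sum was thus highest in the group where Cxcl14 was lowest. In Ly6Clow cells its median was lower in SULT2B1b-LLC (126 CPM) than in Mock-LLC (245 CPM), as Cxcl14 was, though the ranges overlapped. There the median log2 fold change of the tested fibroblast genes was -0.34, and edgeR called 0 of them between tumour types (3 at an unadjusted p under 0.05 in edgeR, 0 called by DESeq2 or limma-voom). The 8 eosinophil genes summed to 203 to 270 and 301 to 389 CPM in Ly6Clow cells, and to 3.72 to 55.3 and 25.7 to 63.2 CPM in Ly6Chigh cells. The part of such cells in the Cxcl14 differences was not tested.

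The genes whose log2 levels were most like those of Cxcl14 over the 15 libraries were Fn1, fibronectin (r = 0.97), Itga6, an integrin subunit gene (r = 0.95), and Col14a1, a collagen gene (r = 0.95). After group means were subtracted these were 0.76, 0.88 and 0.79. In Mock-LLC, Fn1 had 13418 ± 978 CPM in the Ly6Clow and 5612 ± 870 CPM in the Ly6Chigh population, and in SULT2B1b-LLC 5523 ± 1325 and 3183 ± 793 CPM, the same order of groups as Cxcl14. Col14a1 had 80.6 ± 7.50 and 21.5 ± 1.32 CPM in Mock-LLC and 38.1 ± 3.24 and 7.80 ± 5.85 CPM in SULT2B1b-LLC in the same order of populations (n = 4, 4, 3 and 4 for both genes).

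Cxcl16, the transmembrane chemokine, had 353, 277, 365 and 286 CPM in Ly6Clow and 431, 440.3, 695 and 474 CPM in the Ly6Chigh cells of Mock-LLC tumours 1 to 4. In SULT2B1b-LLC it had 612, 575 and 584 CPM in Ly6Clow cells of tumours 2 to 4 and 523, 651, 664 and 645 CPM in Ly6Chigh cells of tumours 1 to 4. The Ly6Clow libraries of Mock-LLC were below all others, and the other 3 groups overlapped. Separation of 2 groups in either direction held for 22.3% of all genes between populations of Mock-LLC. Between tumour types in Ly6Clow cells it held for 16.1%. By mean the order was Ly6Chigh cells of SULT2B1b-LLC (621 ± 65.9 CPM, n = 4), Ly6Clow cells of SULT2B1b-LLC (590.4 ± 19.0, n = 3), Ly6Chigh cells of Mock-LLC (510.2 ± 125, n = 4) and Ly6Clow cells of Mock-LLC (320.1 ± 45.1, n = 4). Its range over all libraries, 2.51-fold, was the narrowest of the 6 genes.

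In Ly6Clow cells Cxcl16 rose 1.84-fold in SULT2B1b-LLC (95% interval 1.46 to 2.34, edgeR adjusted p = 0.0153). In Ly6Chigh cells the ratio was 1.22 (0.976 to 1.52, unadjusted p = 0.0778, edgeR adjusted p = 0.391). Between populations Cxcl16 rose 1.59-fold in Ly6Chigh cells of Mock-LLC (1.28 to 1.99, edgeR adjusted p = 0.0121), and in SULT2B1b-LLC the ratio was 1.05 (0.828 to 1.34, edgeR adjusted p = 0.901). It was higher in Ly6Chigh cells in 7 of 7 tumours, by 1.22- to 1.91-fold in Mock-LLC and 1.06- to 1.15-fold in SULT2B1b-LLC. The interaction, -0.60 on the log2 scale (-1.07 to -0.13), had an unadjusted p of 0.0154 and an edgeR adjusted p of 0.538, so that a difference between the effects was not called. The call in Ly6Clow cells was lost without tumour 2, 3 or 4 of SULT2B1b-LLC (edgeR adjusted p = 0.0767, 0.0648 and 0.0706), at log2 fold changes of 0.88 to 0.92.

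Since the library kit does not mark strand, reads of Cxcl16 and of the overlapping Zmynd15 cannot be told apart where they overlap: 478 of the stretches of 75 bases in Cxcl16 transcripts (15.4%) also occur in Zmynd15. Zmynd15 had 31.1 ± 3.81 CPM (n = 4) in Ly6Clow cells of Mock-LLC and 77.3 ± 4.23 (n = 3) in those of SULT2B1b-LLC, 8.53% to 10.8% and 12.5% to 14.0% of the count of Cxcl16, and was not called (edgeR adjusted p = 0.239). The 10 general macrophage genes, all detected in every group, summed to 18980 to 22190 CPM in Ly6Clow cells of Mock-LLC and 29088 to 30493 CPM in those of SULT2B1b-LLC, and so moved with Cxcl16 there; their part was not tested. In Ly6Chigh cells of Mock-LLC, where Cxcl16 was higher than in Ly6Clow cells, they were lower, at 11616 to 13644 CPM. The genes most like Cxcl16 were the MHC class II genes H2-Ab1 (r = 0.94) and H2-Aa (r = 0.92) and the cystatin gene Cst3 (r = 0.92); after group means were subtracted these were 0.62, 0.53 and 0.65. MHC-II was part of the Ly6Chigh gate, so the level of H2 genes is no finding between populations. In Mock-LLC, H2-Ab1 had 2833 ± 238 CPM in the Ly6Clow and 6149 ± 1696 CPM in the Ly6Chigh population, and 7823 ± 1430 and 9218 ± 2210 CPM in SULT2B1b-LLC in the same order, lowest in the group where Cxcl16 was lowest. Cxcl14 and Cxcl16 went opposite ways over the groups (r = -0.74 over 15 libraries) but not within them (r = 0.36 after group means were subtracted).

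**Figure D4:**
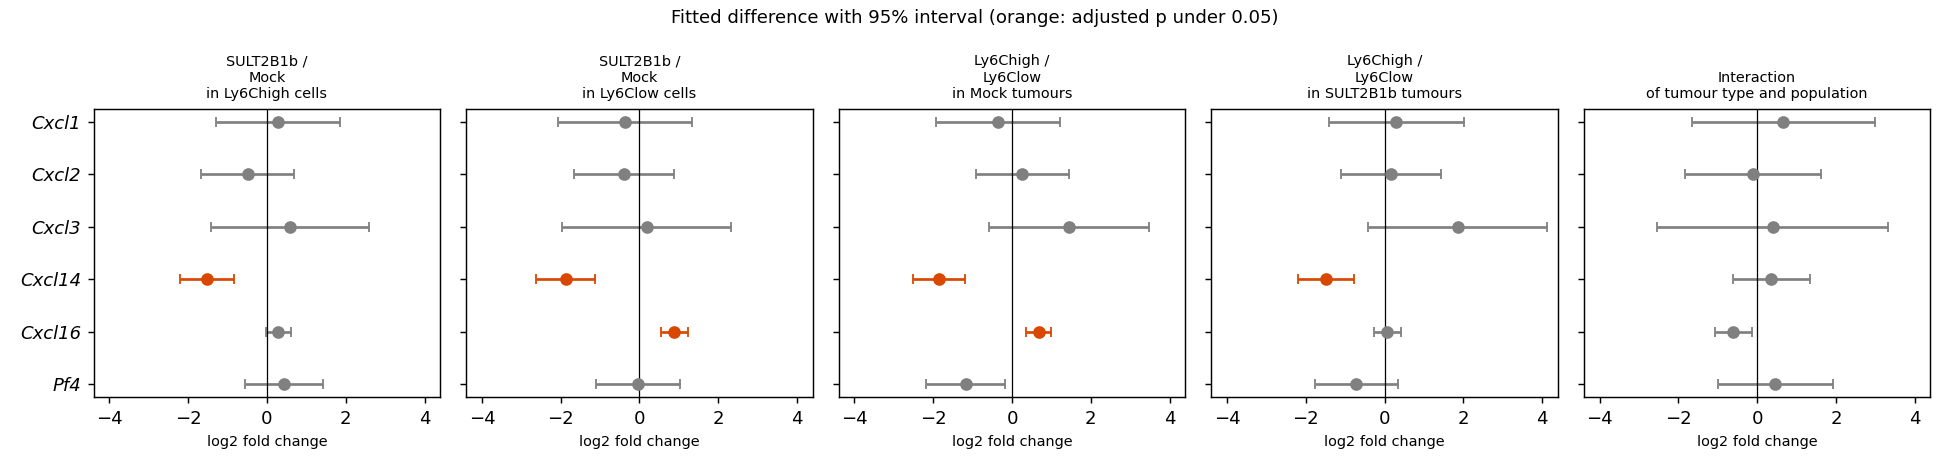
Fitted log2 fold change (point) and 95% interval (bar) of the 6 genes in the 4 comparisons and their interaction, from 1 fit over 15 libraries; orange marks an adjusted p under 0.05. The interval of Cxcl14 lies below 0 in all 4 comparisons, that of Cxcl16 lies above 0 in 2 of them, and Cxcl3 has the widest intervals.

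Pf4, the platelet chemokine, had 154 to 347 CPM per kb of exon as group means, beside 204 to 319 for Cxcl2 and 106 to 205 for Cxcl16; it was above both in Ly6Clow cells of both tumour types. It had 262, 228, 219 and 292 CPM in Ly6Clow and 63.1, 117, 91.3 and 172 CPM in the Ly6Chigh cells of Mock-LLC tumours 1 to 4. These groups did not overlap, as was so for 22.3% of all genes. In SULT2B1b-LLC it had 349, 159 and 226 CPM in Ly6Clow cells of tumours 2 to 4 and 70.4, 362, 72.8 and 88.5 CPM in Ly6Chigh cells of tumours 1 to 4. Tumour 2 was the highest in both populations, and its Ly6Chigh cells stood above all Ly6Clow libraries. In Mock-LLC Pf4 was 2.26-fold lower in Ly6Chigh cells (1.13 to 4.52, unadjusted p = 0.0245), which missed the threshold with an edgeR adjusted p of 0.149; with the tumour as a block it passed (log2 fold change -1.25, edgeR adjusted p = 0.025). In SULT2B1b-LLC the log2 fold change was -0.71 (-1.77 to 0.35, edgeR adjusted p = 0.572), and without the Ly6Chigh library of tumour 2 it was -1.62 and passed (edgeR adjusted p = 0.02). Pf4 was lower in Ly6Chigh cells in 6 of 7 tumours, and in tumour 2 of SULT2B1b-LLC the ratio of Ly6Chigh to Ly6Clow was 1.04. Between tumour types the log2 fold change was 0.43 in Ly6Chigh (-0.57 to 1.42, edgeR adjusted p = 0.738; -0.53 without tumour 2 of SULT2B1b-LLC) and -0.03 in Ly6Clow cells (-1.10 to 1.03, edgeR adjusted p = 1).

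Platelet genes were low but moved with Pf4 in tumour 2 of SULT2B1b-LLC. The 12 platelet genes, which leave out Pf4, summed to 89.5 CPM in its Ly6Chigh library against 11.8 to 20.8 CPM in the other 3, and to 45.1 CPM in its Ly6Clow library against 19.1 and 22.6 CPM. In Mock-LLC the sums were 14.7 to 19.5 CPM in Ly6Clow cells, and in Ly6Chigh cells 2.07, 8.49 and 7.61 CPM in tumours 1, 2 and 4, with tumour 3 highest but below the Ly6Clow range. Without Ppbp the Ly6Chigh sums were 0.218 to 1.66 CPM in Mock-LLC and 10.7 to 31.7 CPM in SULT2B1b-LLC, and the Ly6Clow sums 12.4 to 15.1 and 17.9 to 26.2 CPM. Ppbp, the platelet chemokine gene next in kind to Pf4, had 57.8 CPM in Ly6Chigh cells of that tumour and 18.9 CPM in its Ly6Clow cells, and at most 11.3 CPM in any other library. Pf4 and Ppbp shared the highest tumour in 3 of 4 groups and the lowest in 4 of 4, of which 1 is a tie of Ppbp at 0 in tumours 1 and 4 of the Ly6Chigh cells of SULT2B1b-LLC. Most of the rest of the sum was Itgb3, an integrin gene that macrophages also express, at 13.1 ± 10.5 CPM in Ly6Chigh cells of SULT2B1b-LLC (n = 4) and 0.461 ± 0.805 in those of Mock-LLC (n = 4), which was called (edgeR adjusted p = 0.0287). The platelet genes Gp9, Gp1ba, Gp1bb and Gp5 were at 0 in Ly6Chigh cells of SULT2B1b-LLC, as were Gp1ba, Gp1bb, Gp5 and Gp6 in Ly6Clow cells. Others were detected in SULT2B1b-LLC. In Ly6Chigh cells Gp6 had 23 counts, all in tumour 1, Clec1b 18, all in tumour 3, Tubb1 8, all in tumour 2, and Treml1 14. Gp9 had 27 counts in the 3 Ly6Clow libraries. In Mock-LLC, Gp5, Gp6, Treml1, Tubb1 and Clec1b were at 0 in Ly6Chigh cells and Gp9 in Ly6Clow cells. Ly6Clow cells of Mock-LLC held 58 counts of Treml1, 26 of Clec1b, 11 of Gp1ba, 10 of Tubb1 and 6 of Gp6. Of the 12 genes 3 were tested, namely Ppbp, Itgb3 and Itga2b. Itga2b had 304 counts in Ly6Clow and 4 in Ly6Chigh cells of Mock-LLC. In SULT2B1b-LLC it had 418 and 37 counts. DESeq2 called Itga2b between tumour types in Ly6Chigh cells and between populations of Mock-LLC. Limma-voom called it in the latter only, and edgeR in neither. The part of platelets in the level of Pf4 was not tested. The genes most like Pf4 were the metallothionein gene Mt1 (r = 0.90), Snx6 (r = 0.90) and Gps1 (r = 0.88); Mt1 fell in Ly6Chigh cells of Mock-LLC (2.69-fold lower, edgeR adjusted p = 0.0069).

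Of the receptors of these chemokines few were expressed by the sorted cells. Of 8 CXC and atypical receptor genes 6 were tested, and edgeR called 1, Cxcr2, in 1 of the 4 comparisons. That was between tumour types in Ly6Chigh cells, where 1.62% of all genes tested were called and 0.725% fell. DESeq2 called Cxcr2 in 2 comparisons and limma-voom in 0. Cxcr2, the receptor of Cxcl1, Cxcl2 and Cxcl3, had 1.52 ± 0.283 CPM in Ly6Clow cells of Mock-LLC (n = 4) and 1.59 ± 0.735 in those of SULT2B1b-LLC (n = 3). In Ly6Chigh cells it had 5.45, 10.9, 0 and 1.36 CPM in Mock-LLC tumours 1 to 4, and a single count in the 4 SULT2B1b-LLC libraries together. The drop was called (edgeR adjusted p = 0.0482) although the groups overlapped at 0. Cxcr6, the receptor of Cxcl16, stayed at or below 8.31 CPM and Cxcr3 at or below 4.82 CPM in every library, with several libraries at 0. The 9 T and NK cell genes summed to 0 to 10.2 CPM, and Cd8a and Ncr1 were among those at 0 in every group. Cxcr4, the receptor of Cxcl12, was the most abundant, with group means of 33.0 to 48.1 CPM, and was called in no comparison (edgeR adjusted p from 0.527 to 1). Cxcr1 had 7 counts in all, each in Ly6Clow cells of Mock-LLC, and Ackr1 had 0 counts in every library.

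Among proteins that cut or carry these chemokines, Dpp4, a peptidase that trims the ends of several CXC chemokines, rose in Ly6Chigh cells. It had 42.2 ± 14.4 against 11.9 ± 5.05 CPM in Mock-LLC (n = 4 each; 3.54-fold, edgeR adjusted p = 0.00317) and 41.2 ± 7.51 (n = 4) against 12.8 ± 1.84 CPM (n = 3) in SULT2B1b-LLC (3.23-fold, edgeR adjusted p = 0.0188). The populations of Dpp4 did not overlap in either tumour type, as was so for 22.3% of all genes in Mock-LLC and 19.5% in SULT2B1b-LLC. By edgeR the others of the list of 5 were called in no comparison: Adam10 and Adam17, proteases that shed membrane proteins such as Cxcl16, Srgn, which encodes serglycin, and Mmp9, a protease that trims CXCR2 ligands. In Mock-LLC, Mmp9 had 96.7 ± 16.2 CPM in the Ly6Clow and 13.4 ± 18.4 CPM in the Ly6Chigh population (n = 4 each) and 75.6 ± 14.4 (n = 3) and 8.10 ± 6.18 CPM (n = 4) in SULT2B1b-LLC, with edgeR adjusted p-values of 0.0761 and 0.121 between populations; limma-voom called it in Mock-LLC. Srgn, at 2226 ± 319 and 1410 ± 48.6 CPM in Ly6Clow cells of Mock-LLC and SULT2B1b-LLC, did not overlap there, as was so for 16.1% of all genes (edgeR adjusted p = 0.222), and was called by DESeq2 and limma-voom.

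The 6 other CXC ligand genes outside the CXCR3 ligands were low in most libraries, apart from Ppbp in tumour 2 of SULT2B1b-LLC. Cxcl5, Ppbp and Cxcl12 were tested, and 0 of 3 were called in any comparison by edgeR, DESeq2 or limma-voom, with 0 at an unadjusted p under 0.05 in edgeR. Cxcl5, an ELR chemokine, had 0 to 5.38 CPM, and Cxcl12 had at most 19.3 CPM, in the Ly6Chigh library of SULT2B1b-LLC tumour 1 that was unlike the rest, and at most 6.43 CPM in any other. Cxcl13 had 35 counts over all libraries, Cxcl17 had 27 and Cxcl15, which lies within the chr5 cluster, had 2. Of the 3 CXCR3 ligand genes, Cxcl9 rose with SULT2B1b-LLC in both populations and Cxcl10 in Ly6Clow cells, while Cxcl14 fell in both populations. A link between these changes was not tested.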

How the data were processed

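The deposited table holds raw counts per gene symbol for all 15 libraries, which the authors made from single-end reads of 75 nt; per the labels' protocols, 500 ng of RNA went into SMART-Seq v4 libraries, a kit that does not mark strand, and per the submitters' processing notes STAR 2.5.3a, featureCounts, limma and the builds mm10 and GRCm38 were named. For the annotation release and the counting options, the sources used here give nothing. The 6 genes and the gene lists were chosen with earlier results of these data known. Groups came from the labels. edgeR 4.0.16 in R 4.3.3 filtered low counts (13800 of 50508 symbols kept), scaled by TMM and fitted 1 robust quasi-likelihood model of 4 groups, with Benjamini-Hochberg adjustment over all genes tested and a threshold of 0.05. A called fold change is relative to the scaled libraries. Alternatives used DESeq2 1.42.0 and limma 3.58.1. Within a tumour type, libraries with 1 number come from 1 tumour per the labels, so populations are paired; their deviations from group means correlated at 0.0328 to 0.109. No 2 libraries of a group agreed within counting noise. Floors of 3 counts cover counting error only. Positions come from GENCODE mouse release 21 (GRCm38) and promoters from RefSeq. Likeness is Pearson's r of log2(CPM + 1) over 15 libraries among tested, named genes with an average log2 CPM of at least 3. Named genes are the 6, the genes past the threshold in the lists of other ligands, receptors and partners, fixed receptors, the first 2 a direction of the NF-kB, macrophage and platelet lists, and the 3 most alike per gene.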

Additional observations from a re-analysis of the deposited data

Results flagged for a closer look

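In groups of 4 libraries, 18 groups of 1 gene each were checked at both ends with Dixon's ratio of the CPM, for which the critical value is 0.829. Chance flags about 1 in 20 groups if values are normally distributed and independent. CPM need not be so, and the genes share libraries, so the number of flags is a description only. A sample far from the others was found 5 times. Cxcl3 had 56.6 CPM in Ly6Chigh cells of Mock-LLC tumour 2 (gap over range 0.930; the others had 16.5 to 19.3 CPM) and 131 CPM in Ly6Chigh cells of SULT2B1b-LLC tumour 2 (0.846; the others had 1.35 to 21.2 CPM). Pf4 had 362 CPM in that same Ly6Chigh library of SULT2B1b-LLC tumour 2 (0.938; the others had 70.4 to 88.5 CPM). Cxcl16 had 695 CPM in Ly6Chigh cells of Mock-LLC tumour 3 (0.836; the others had 431 to 474 CPM). Cxcl16 was lowest, at 523 CPM, in Ly6Chigh cells of SULT2B1b-LLC tumour 1 (0.872; the others had 645 to 664 CPM).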

How the results depend on the processing

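Of 612 values of the 6 genes under alternatives, 541 kept their direction and side of the threshold, 25 no longer passed, 5 newly passed and 41 changed direction, none of them past the threshold. In Ly6Chigh cells the count of genes called between tumour types went from 1 to 0 with limma-voom, with its quality weights, with only the groups compared and with limma-voom's replicate block (Cxcl14 adjusted p = 0.142, 0.388, 0.361 and 0.137), and was 0 to 1 without 1 library. In Ly6Clow cells it was 2 under all 11 other alternatives and 0 to 1 without 1 library. Between populations it was 2 to 3 in Mock-LLC, and in SULT2B1b-LLC it went from 1 to 0 with no filter, limma-voom, quality weights, only the groups compared and limma-voom's replicate block (Cxcl14 adjusted p = 0.0525, 0.0864, 0.177, 0.215 and 0.0735), and was 0 to 1 without 1 library. With the edgeR block on tumour, Pf4 of Mock-LLC passed (adjusted p = 0.025), and it did so too with limma-voom (0.0356), only the groups compared (0.0435) and limma-voom's block (0.0258). The block changed no other call than those given here. The interaction called 0 of 6 throughout. The log2 fold change of Cxcl3 turned with limma-voom, its quality weights and its block, to -0.71, -0.23 and -0.72 in Ly6Chigh cells, -0.39, -0.12 and -0.39 in Ly6Clow cells and -0.32, -0.10 and -0.33 for the interaction, which was -0.073 with the edgeR block; the Cxcl2 interaction was 0.092 with quality weights. Leaving out 1 library moved the log2 fold change in Ly6Chigh cells from -0.49 to 0.88 (Cxcl1), -1.34 to 1.23 (Cxcl3) and -0.53 to 0.72 (Pf4), and in Ly6Clow cells from -0.71 to 0.085 (Cxcl1), -0.79 to 0.10 (Cxcl2), -1.22 to 0.60 (Cxcl3) and -0.36 to 0.21 (Pf4). Between populations it moved from -0.87 to 0.074 (Cxcl1) in Mock-LLC, and from -0.45 to 0.70 (Cxcl1), -0.21 to 0.63 (Cxcl2) and -0.0026 to 3.33 (Cxcl3) in SULT2B1b-LLC. The interaction moved from -0.14 to 1.23 (Cxcl1), -0.58 to 0.31 (Cxcl2), -1.54 to 1.82 (Cxcl3) and -0.52 to 0.80 (Pf4). The cause was not tested. Over all genes the count called was 223 (3 to 992 under alternatives), 88 (63 to 708), 1160 (605 to 2751), 365 (204 to 887) and 2 (0 to 109) for the 5 tests in the order above. Median-ratio scaling shifted all genes by 0.13 in Mock-LLC and 0.11 in SULT2B1b-LLC (log2) between populations. Depth limits Cxcl3 and Cxcl14 most, which had as few as 13 and 9 counts in a library.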
